A study of Bos taurus with 12 samples.

Results

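A set of 126 bovine genes was higher at day 12 of adipogenic differentiation when insulin was left out of the medium and also when rosiglitazone was left out. They were chosen by their measured levels. A gene had to average at least 20 CPM (reads of a gene scaled to a fixed library total) over the 12 libraries. Its log2(CPM + 1) had to lie at least 1 above the full medium in both deprived media on the mean of 3 donors, and above it in each donor in both. Of the 22372 genes in the table, 4132 reached 20 CPM, and the 126 were 3.05% of those. The same rule turned downwards gave 108 genes. On single transcripts in place of genes, with no batch correction, the order turned, with 107 transcripts raised and 121 lowered. The unit and the correction changed together there, so their parts cannot be told apart. Another 38 genes passed both mean thresholds but were not higher in every donor. Both rises were selected on, so they are described below, and a count of genes past limma's threshold is given for them only as a description that supports nothing. What the rule left free was the level without hydrocortisone and progesterone, apart from its share in the 20 CPM mean. The difference of that level to the full medium was not wholly free, since the rule asked for low values in that medium. The rule set no order between the rises, but it limited their difference, since both had to reach 1.

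The cells were bovine stromal vascular cells (SVC), the non-adipocyte fraction of adipose tissue, which the sample labels call MSC, grown without serum and then kept 12 days in differentiation medium. The 4 media were rDM (a serum-free reduced differentiation medium with insulin, rosiglitazone, hydrocortisone and progesterone), rDM 0% Ins (no insulin), rDM 0% Ros (no rosiglitazone) and rDM 0% HC/PR (neither steroid), and no medium held IBMX or dexamethasone. Each medium had 1 library of PCR-amplified Nanopore cDNA from each of 3 donors, A, B and C. The 12 libraries held between 302754 and 1153853 estimated reads, so that 3 reads stood for 2.71 to 10.2 CPM depending on the library. The only error available is the spread between the 3 libraries of a medium, 1 per donor. The CPM values had been corrected for the donor batches, so neither this spread nor any SD or SE below is the full spread between donors.

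Insulin acts through its receptor on the PI3K and AKT kinases, by which it promotes glucose uptake and lipid synthesis and holds back FOXO transcription factors. Rosiglitazone is a synthetic ligand of PPARγ, the nuclear receptor that switches on much of the adipocyte gene programme. Hydrocortisone and progesterone both bind steroid receptors, and glucocorticoid receptor activity early in culture is known to favour adipogenesis. As precursors become adipocytes they turn on lipid storage genes and turn down many genes of the undifferentiated state. Which of these roles the 126 genes hold could not be looked up, because the annotation used here paired 0 of the 22372 Ensembl identifiers with a symbol, so genes are given by identifier and neither pathway lists nor markers of adipocytes, progenitors or other cells are analysed here. In bulk RNA, more cells of a type and more RNA per cell cannot be told apart.

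The level in rDM was itself part of the rule, which asked for lower levels there, so it is a description. The mean level of a gene over the 3 rDM libraries ran from 0.301 to 905 CPM with a median of 21.4 CPM, against 49.7 CPM for all 4132 genes of at least 20 CPM. The upper quartile of the set was 48.9 CPM. Most of the genes were thus already detected in the full medium. A typical gene of the set rested on 47 reads summed over the rDM libraries (range 1 to 2017). Only 7 genes had an rDM library without a read, and 0 genes lacked reads in all of them. By library, the median gene stood at 22.1, 17.4 and 21.6 CPM in rDM of donors A, B and C. It stood at 52.2, 67.0 and 71.1 CPM in rDM 0% Ins, and at 75.8, 58.2 and 64.2 CPM in rDM 0% Ros. It stood at 33.2, 45.2 and 24.8 CPM in rDM 0% HC/PR, above all rDM libraries, as the boxes of levels by library show.

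**Figure D1:**
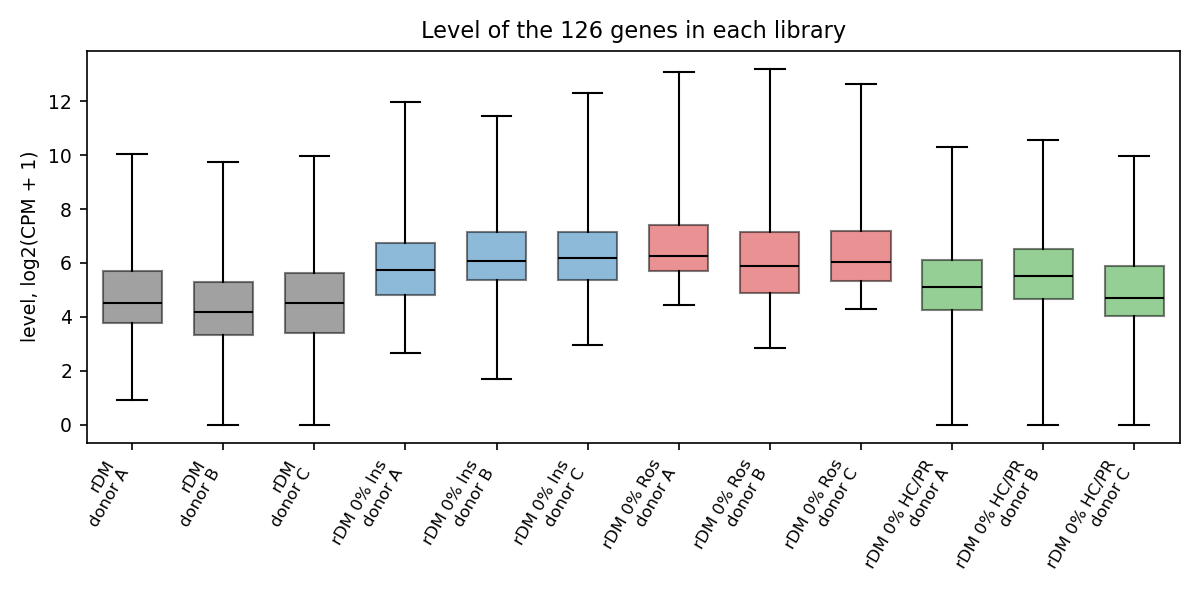
Level of the 126 genes in each of the 12 libraries, as log2(CPM + 1). Boxes span the quartiles with the median as a line, and whiskers reach the lowest and highest gene; the medians in CPM run from 17.4 in the rDM library of donor B to 75.8 in the rDM 0% Ros library of donor A.

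Added together, the 126 genes took 0.774%, 0.697% and 0.768% of the reads of the rDM libraries, a mean of 0.746% ± 0.0425 (SD, n = 3). Without insulin they took 2.13%, 2.32% and 2.66%, and without rosiglitazone 3.07%, 2.70% and 2.78%. Those means, 2.37% ± 0.269 and 2.85% ± 0.192 (SD, n = 3), were 3.18 and 3.82 times the rDM mean, which follows from the choice of the genes. Without HC/PR the share was 0.991%, 1.40% and 0.880%, or 1.09% ± 0.272 (SD, n = 3). Each of these libraries lay above all rDM libraries, which is favoured by the choice of genes low in rDM. That they lay below all libraries without insulin or rosiglitazone is favoured by the choice of genes high in those. A single gene, ENSBTAG00000046158, gave between 7.07% and 35.0% of the sum. With it taken out, the rDM 0% HC/PR shares were 0.864%, 1.25% and 0.780%, against 0.690%, 0.611% and 0.678% in rDM.

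Most rises were moderate and of like size in both media. On the log2 scale the rise without insulin had a median of 1.41 (range 1.01 to 5.20) and the rise without rosiglitazone a median of 1.53 (range 1.01 to 6.89). A rise under 1.5 was found for 78 genes without insulin and for 59 without rosiglitazone. At the other end, 27 and 30 genes were higher by at least 2, and 19 genes did so in both media. In 111 genes, every library of both deprived media lay above every rDM library. The rule favours this and the share over all genes is not given, so nothing is read from the count. The 28 genes under 10 CPM in rDM, which could reach the bound of 20 CPM only through the other media, had median rises of 2.26 without insulin and 2.73 without rosiglitazone. Above 10 CPM the rises did not shrink with the rDM level, at 1.28 and 1.39 for 51 genes of 10 to 30 CPM, 1.30 and 1.38 for 28 genes of 30 to 100 CPM, and 1.38 and 1.58 for 19 genes of at least 100 CPM. Donor A gave the smaller rises without insulin, with a median of 1.00 against 1.70 and 1.57 in donors B and C, whereas without rosiglitazone the donors had 1.74, 1.43 and 1.60. In limma, fitted on all 9267 genes tested, 29 of the 126 passed an adjusted p of 0.05 for the rise without insulin, where 0.658% of all genes tested were called higher. For the rise without rosiglitazone 57 passed, where 1.80% were called higher. With both rises part of the rule, nothing is read from these counts. They mostly fell when libraries were left out, where the fit also has fewer libraries and so tends to call fewer genes. The 29 became 6, 11 and 2 without donors A, B and C, and 14, 3 and 7 without the rDM library alone of each. They became 13 and 6 without the rDM 0% Ins library of donor B or C, and 31 without that of donor A. The 57 became 15, 44 and 22 without donors A, B and C. They became 34 without the rDM library of donor B and 31 without the rDM 0% Ros library of donor A. The genes nearest the 20 CPM bound averaged 20.02 and 20.07 CPM inside it and 19.97 and 19.88 CPM outside. Nearest the bound of 1, rises without insulin were 1.005 and 1.009 inside and 0.9922 and 0.9914 outside. Rises without rosiglitazone were 1.006 and 1.007 inside and 0.9979 and 0.9923 outside.

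The 2 genes with the largest rises were near the detection limit in rDM. ENSBTAG00000052305 was at 0.903, 0.00 and 0.00 CPM in rDM of donors A, B and C, which is 1 read in all. It was at 5.40, 188 and 77.9 CPM without insulin, and at 226, 116 and 118 CPM without rosiglitazone. Without HC/PR it stood at 13.3, 0.00 and 82.2 CPM. The gene was thus above rDM in all 6 libraries without insulin or rosiglitazone, and its level without HC/PR differed from donor to donor, with donor B listed at 0. ENSBTAG00000018189 was at 0.903, 4.53 and 9.61 CPM in rDM (8 reads in all). It was at 142, 22.3 and 125 CPM without insulin, and at 192, 223 and 202 CPM without rosiglitazone. Its libraries without rosiglitazone lay close together and above all others, while those without HC/PR, at 0.00, 79.8 and 17.2 CPM, ran from below rDM to above the lowest library without insulin. Differences for such genes are understated on the log2(CPM + 1) scale.

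The 2 genes most abundant in rDM differed in their pattern. ENSBTAG00000000524 was at 1041, 683 and 989.7 CPM in rDM of donors A, B and C. It was at 1696, 2778 and 2333 CPM without insulin and at 2471, 1683 and 2289 CPM without rosiglitazone. Both groups lay above rDM and overlapped each other, and without HC/PR the gene was at 800.3, 1346 and 971 CPM, which overlapped rDM. ENSBTAG00000046158 was at 832, 861 and 898 CPM in rDM, a narrow range. It was at 4016, 1641 and 5063 CPM without insulin, and at 8652, 9457 and 6439 CPM without rosiglitazone. Every library without rosiglitazone was above every library without insulin for this gene, although donor C came near. Its levels without HC/PR, 1269, 1524 and 1003 CPM, were above all rDM libraries and below all others.

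**Figure D2:**
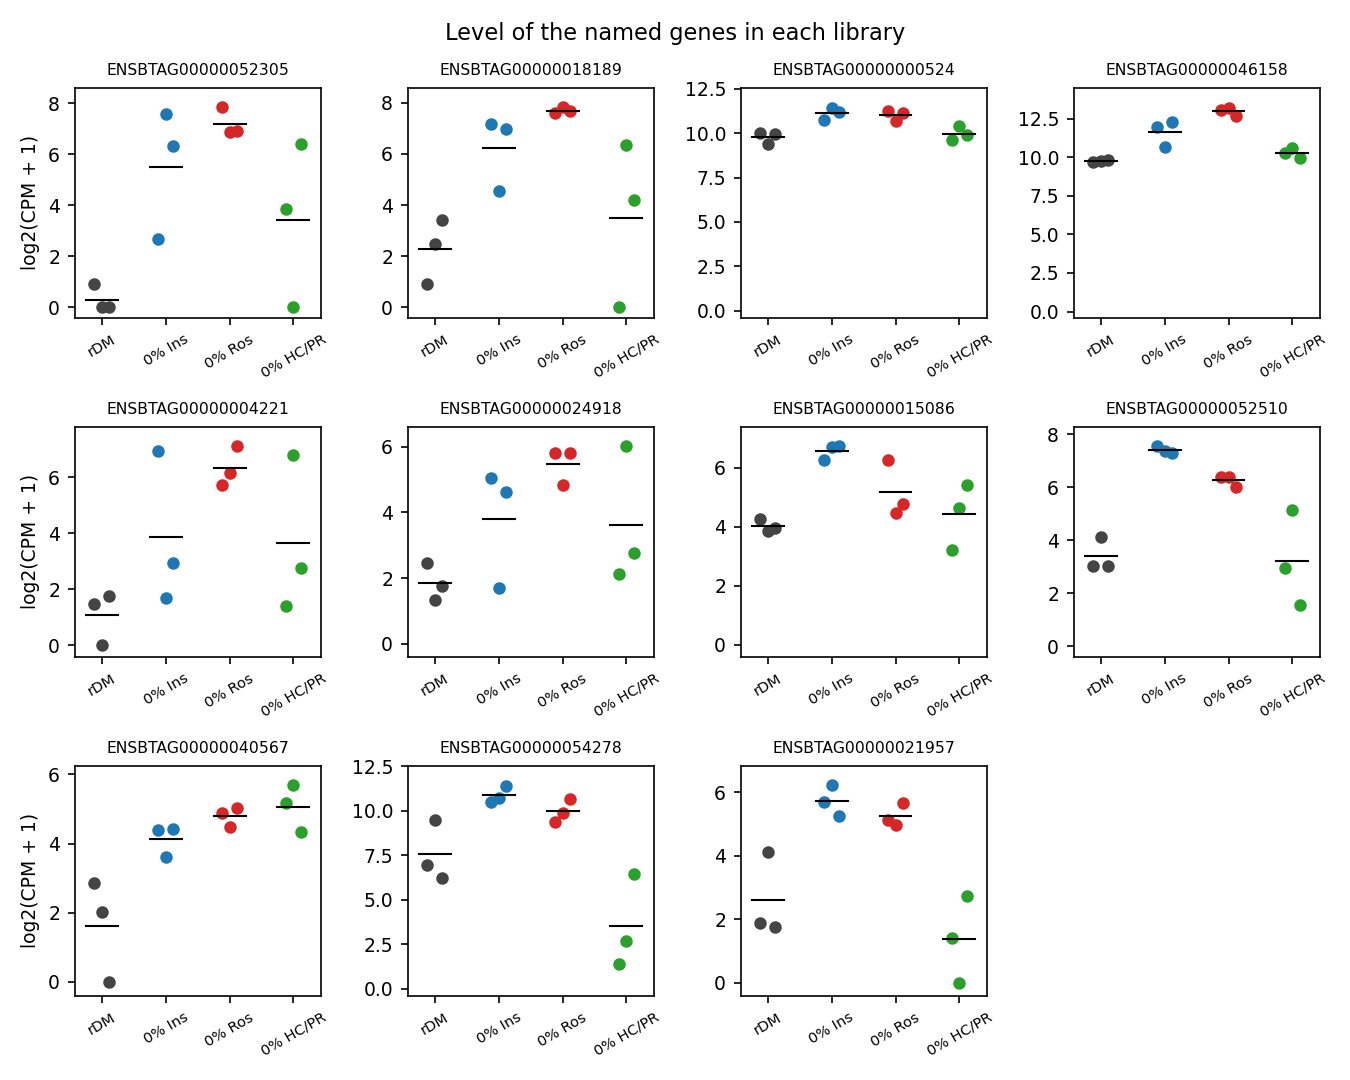
Level of the 11 named genes, as log2(CPM + 1), in every library. Each point is 1 library, with donors A, B and C from left to right within a medium, and the line is the mean of 3; ENSBTAG00000054278 has all 3 rDM 0% HC/PR points below those without insulin or rosiglitazone, and ENSBTAG00000040567 has all 3 above rDM.

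The next question was which of the rises was larger. The difference between them is rDM 0% Ros minus rDM 0% Ins, in which the rDM libraries cancel. The rule kept out genes that moved in only 1 of these media or fell in either, so that this difference was limited in advance. Its counts are a description, and nothing is read from their distance to the shares of all genes, which hold such genes. Its median over the 126 genes was 0.14 on the log2 scale, against -0.14 over the genes of at least 20 CPM. The sign was not shared by the donors, with medians of 0.61, -0.31 and -0.04 in donors A, B and C, against 0.07, -0.38 and -0.16 over the genes of at least 20 CPM. Without donor A the median of the set was -0.15. The level was higher without rosiglitazone for 83 genes and higher without insulin for 43, and for 91 genes the rises lay within 0.5 of each other. Rosiglitazone removal gave the higher level in all donors for 19 genes, or 15.1%, where 11.6% of all genes of at least 20 CPM did so. Insulin removal gave the higher level in all donors for 5 genes, or 3.97%, against 23.8%. By limma's test 0 of the 126 genes differed between the media at an adjusted p of 0.05, where 2.07% of all genes tested did. At an unadjusted p under 0.05 there were 9 genes, 6 of them higher without rosiglitazone, and 13.0% of all genes tested were past that bound. The 9 became 15 without donor A or without its rDM 0% Ins library alone, 17 by edgeR and 14 with a pseudocount of 10, and 6 without the rDM 0% Ros library of donor B or C or with the pool added to the fit. On recovered reads edgeR called 1 gene and DESeq2 called 2 at an adjusted p of 0.05. The smallest adjusted p by limma, 0.0564, belonged to ENSBTAG00000046158, with a difference of 1.33 (SE 0.33), higher in 3 of 3 donors. The size rested on donor B, being 0.73 without that donor and 0.76 (adjusted p = 0.197 by limma) without its rDM 0% Ins library alone, and it was 0.95 (adjusted p = 0.230 by limma) with the library pool added to the fit.

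**Figure D3:**
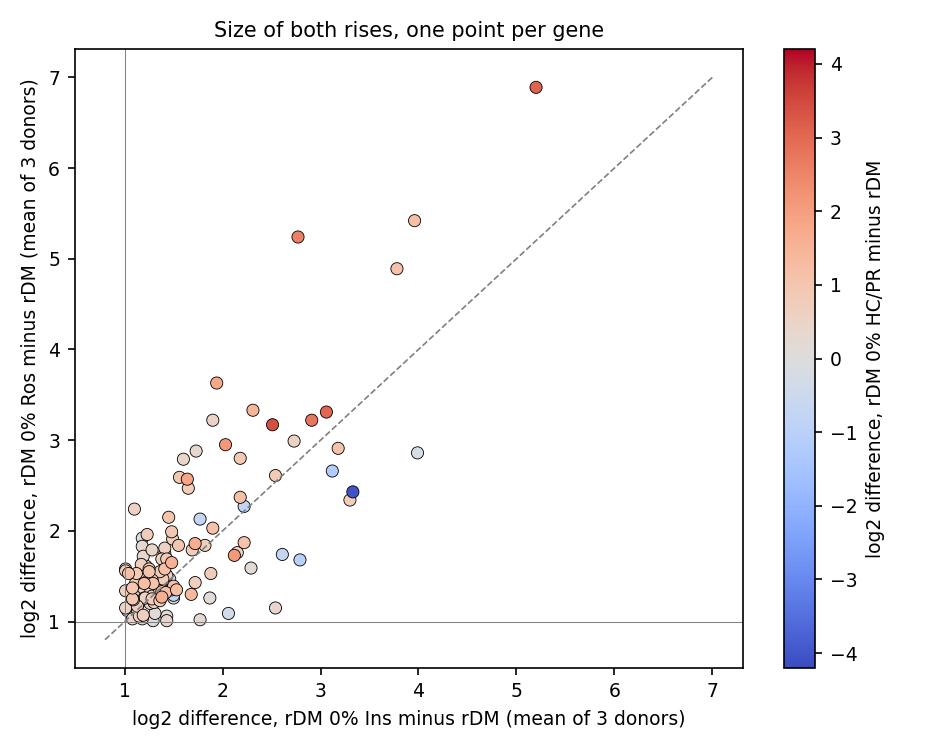
Rise without insulin (x axis) and without rosiglitazone (y axis) of each of the 126 genes, as log2 differences to rDM averaged over 3 donors, coloured by the difference of rDM 0% HC/PR to rDM. Grey lines mark the bound of 1 and the dashed line marks equal rises. A total of 91 genes lie within 0.5 of it, and the blue points, lower without HC/PR than in rDM, are mostly at or below it among the larger rises.

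Genes at either end of this difference showed how much the donors varied. ENSBTAG00000004221, with the largest difference in favour of rosiglitazone removal (2.46, SE 1.37, adjusted p = 0.492 by limma), was at 51.2, 70.4 and 136 CPM without rosiglitazone. Without insulin it was at 121, 2.23 and 6.77 CPM. Donor A alone was high without insulin, so that the groups overlapped, and in rDM the gene was at 1.81, 0.00 and 2.40 CPM. Without HC/PR it was at 1.66, 109 and 5.73 CPM, where donor B alone was high. ENSBTAG00000024918, with the next largest difference (1.69, SE 1.03, adjusted p = 0.538 by limma), was at 55.0, 27.5 and 55.1 CPM without rosiglitazone and at 32.4, 2.23 and 23.7 CPM without insulin. In rDM it was at 4.51, 1.51 and 2.40 CPM, and without HC/PR at 3.32, 63.8 and 5.73 CPM. Donor B was again low without insulin and high without HC/PR. Both differences were smaller without the rDM 0% Ins library of donor B. By donor, that of ENSBTAG00000004221 was -1.22, 4.46 and 4.14 in A, B and C, so donor C carried it about as much as donor B. For ENSBTAG00000004221 the difference was 1.06 without that library, 1.46 without donor B, 1.62 without donor C, 4.30 without donor A and 4.40 without the rDM 0% Ins library of donor A. It was 0.91 with the library pool added to the fit, 1.13 by edgeR, 1.56 by DESeq2 and 1.58 with a pseudocount of 10. For ENSBTAG00000024918 it was 0.44 without that library, 0.96 without donor B, 0.60 with the pool added and 1.06 with a pseudocount of 10. In the other direction, ENSBTAG00000015086 was at 75.6, 103 and 105 CPM without insulin and at 75.8, 21.4 and 26.2 CPM without rosiglitazone, a difference of -1.39 (SE 0.56, adjusted p = 0.296 by limma). It was at 18.1, 13.6 and 14.4 CPM in rDM and at 8.30, 23.9 and 42.0 CPM without HC/PR. Donor A had equal levels without insulin and without rosiglitazone to within 1 CPM, while donors B and C had much the higher level without insulin, and the difference was -2.09 without donor A and -2.15 without its rDM 0% Ros library alone. ENSBTAG00000052510 was at 185, 163 and 156 CPM without insulin and at 83.4, 82.6 and 62.9 CPM without rosiglitazone, a difference of -1.14 (SE 0.55, adjusted p = 0.410 by limma) with no overlap, or -0.76 without the rDM 0% Ros library of donor B. It was at 7.22, 16.6 and 7.21 CPM in rDM and at 6.64, 34.6 and 1.91 CPM without HC/PR, where the donors straddled rDM. These p-values do not show that the media acted alike on such genes, since the errors leave room for differences of several fold.

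Without hydrocortisone and progesterone most of the set stood above rDM, unevenly between donors. The rule asked for rises of at least 1 in the other deprived media, so the place of the set relative to those media is a description. The median log2 difference of rDM 0% HC/PR to rDM was 0.63 (quartiles 0.28 and 0.97), against -0.03 over the genes of at least 20 CPM and 0.00 over all genes tested. The rDM libraries that chose the 126 genes are also the reference here, so a gene that read low in rDM would be pulled up in all 3 differences. The counts of genes above rDM given below are favoured by this and are a description. By donor the median was 0.39, 1.24 and 0.22 in A, B and C, against -0.05, 0.06 and -0.11 over the genes of at least 20 CPM. Donor B had the largest difference, and the median without donor B was 0.30. In donor B the rDM and rDM 0% Ins libraries came from the first pool of libraries and the rDM 0% Ros and rDM 0% HC/PR libraries from the second, so donor and pool cannot be told apart there, while in donors A and C all 4 media shared a pool. On the mean log2 level of the donors 108 of the 126 genes, or 85.7%, lay above rDM, where 47.0% of the genes of at least 20 CPM did. In single donors 91, 109 and 80 genes lay above it in A, B and C. In all donors 46 genes lay above rDM, or 36.5%, against 11.7% of the genes of at least 20 CPM. All rDM 0% HC/PR libraries lay above all rDM libraries for 35 genes, or 27.8%, against 7.43%. The mean log2 level without HC/PR lay between rDM and the lower of the other deprived media for 99 genes, between those media for 6, above both for 3 and below rDM for 18. A place below the other deprived media is favoured by the rule, and nothing is read from it. The 108 genes of the mirrored rule, lower without insulin and without rosiglitazone, had a median difference without HC/PR of -0.67. Those genes were chosen for high levels in rDM, the reference here, which favours a negative value, so nothing is read from it.

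**Figure D4:**
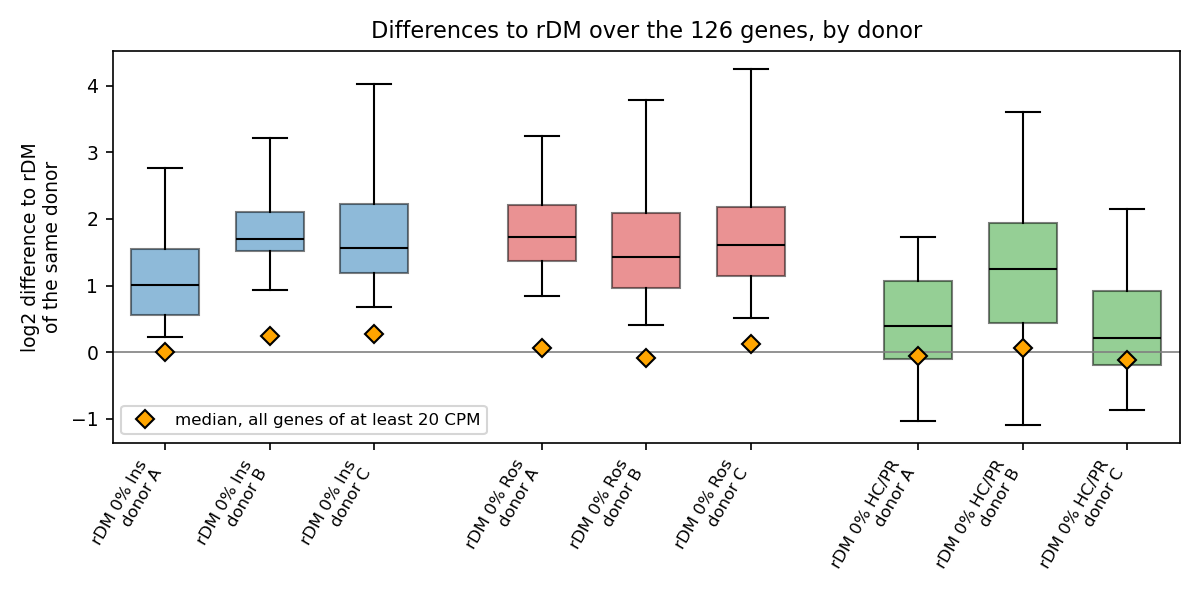
Log2 difference of each deprived medium to rDM, within a donor, over the 126 genes. Boxes span the quartiles with the median as a line, whiskers run from the 5th to the 95th percentile, and diamonds give the median of all genes of at least 20 CPM; the HC/PR medians are 0.39, 1.24 and 0.22, and the whiskers of those boxes reach below 0 in every donor.

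Gene by gene, the difference of rDM 0% HC/PR to rDM did not pass the test. By limma 0 of the 126 genes reached an adjusted p of 0.05, where 0.0216% of all genes tested were called. At an unadjusted p under 0.05 there were 37 genes, 35 of them higher without HC/PR, where 5.37% of all genes tested were past that bound. The choice of genes low in rDM favours higher levels without HC/PR, so nothing is read from this count or its direction. The 37 became 17 without donor B or without its rDM library alone, and 20 without its rDM 0% HC/PR library alone. On recovered reads edgeR called 0 and DESeq2 called 2, and limma with the library pool added to the fit called 0. The smallest adjusted p by limma was 0.0881, for ENSBTAG00000000820, a gene named for that p after its values were seen. It was at 260.1, 216 and 223 CPM in rDM and at 445, 649 and 474 CPM without HC/PR. Those groups did not overlap, with a log2 difference of 1.15 (SE 0.20), and without insulin and rosiglitazone the gene averaged 485 ± 101 and 673 ± 28.4 CPM (SD, n = 3). The largest rise without HC/PR was that of ENSBTAG00000040567, at 6.32, 3.02 and 0.00 CPM in rDM and 34.9, 50.5 and 19.1 CPM without HC/PR. Its log2 difference was 3.43 (SE 0.65, adjusted p = 0.111 by limma), on 9 reads in rDM and 50 without HC/PR, and 1.74 with a pseudocount of 10. Its levels without HC/PR overlapped those in the other deprived media, at 19.8, 11.2 and 20.3 CPM without insulin and 28.4, 21.4 and 31.5 CPM without rosiglitazone. The next largest rise, 3.10, was that of ENSBTAG00000052305 above, and it was 1.45 without donor C, 1.64 without the rDM 0% HC/PR library of donor C and 5.03 without that of donor B. It was 4.64 without donor B, 1.43 with a pseudocount of 10, 5.38 by edgeR and 5.61 by DESeq2.

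Of the 18 genes below rDM without HC/PR, 8 were lower by at least 0.5 on the log2 scale. ENSBTAG00000054278 stood apart. It was at 124, 709 and 74.5 CPM in rDM, with donor B far above the others. It was at 1449.8, 1706 and 2726 CPM without insulin and at 673, 946 and 1639 CPM without rosiglitazone. Without HC/PR it was at 1.66, 5.32 and 86.0 CPM, low in donors A and B and near its rDM level in donor C. The difference to rDM was -4.05 (SE 0.89, adjusted p = 0.248 by limma), and without donor C it was -6.18 with an adjusted p of 0.00248 by limma. It was -2.67 without donor B (adjusted p = 1.00 by limma), -2.91 without the rDM library of donor B alone (adjusted p = 1.00 by limma) and -3.37 with the library pool added to the fit (adjusted p = 0.971 by limma). Without the rDM library of donor C alone it was -5.41 (adjusted p = 0.0428 by limma), and without the rDM 0% HC/PR library of donor C alone -5.54 (adjusted p = 0.00804 by limma). Its log2 difference was -7.38 to rDM 0% Ins and -6.48 to rDM 0% Ros, with no overlap, values that are a description because the gene was chosen for its high level in those media. ENSBTAG00000021957 was the next lowest, at 2.71, 16.6 and 2.40 CPM in rDM and 1.66, 0.00 and 5.73 CPM without HC/PR. The difference to rDM of -1.21 (SE 0.79, adjusted p = 0.994 by limma) rested on donor B, without which it was 0.25, and it was -2.31 without donor C, and -1.85 and -2.04 without its rDM or rDM 0% HC/PR library alone. It was -0.25 and -0.22 without the rDM or rDM 0% HC/PR library of donor B alone. It was -0.28 with the pool added, -2.28 with a pseudocount of 0.1 and -0.40 with one of 10. Its levels without insulin, 50.4, 73.7 and 37.3 CPM, and without rosiglitazone, 34.1, 30.6 and 49.8 CPM, were all well above every library without HC/PR. In 1 gene, ENSBTAG00000000436, all rDM 0% HC/PR libraries lay below all rDM libraries, at 34.9, 29.3 and 38.2 CPM against 49.7, 63.5 and 62.5 CPM. Its log2 difference was -0.76 (SE 0.30, adjusted p = 0.822 by limma). For this direction the share over all genes is not given, so the count is a description.

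**Figure D5:**
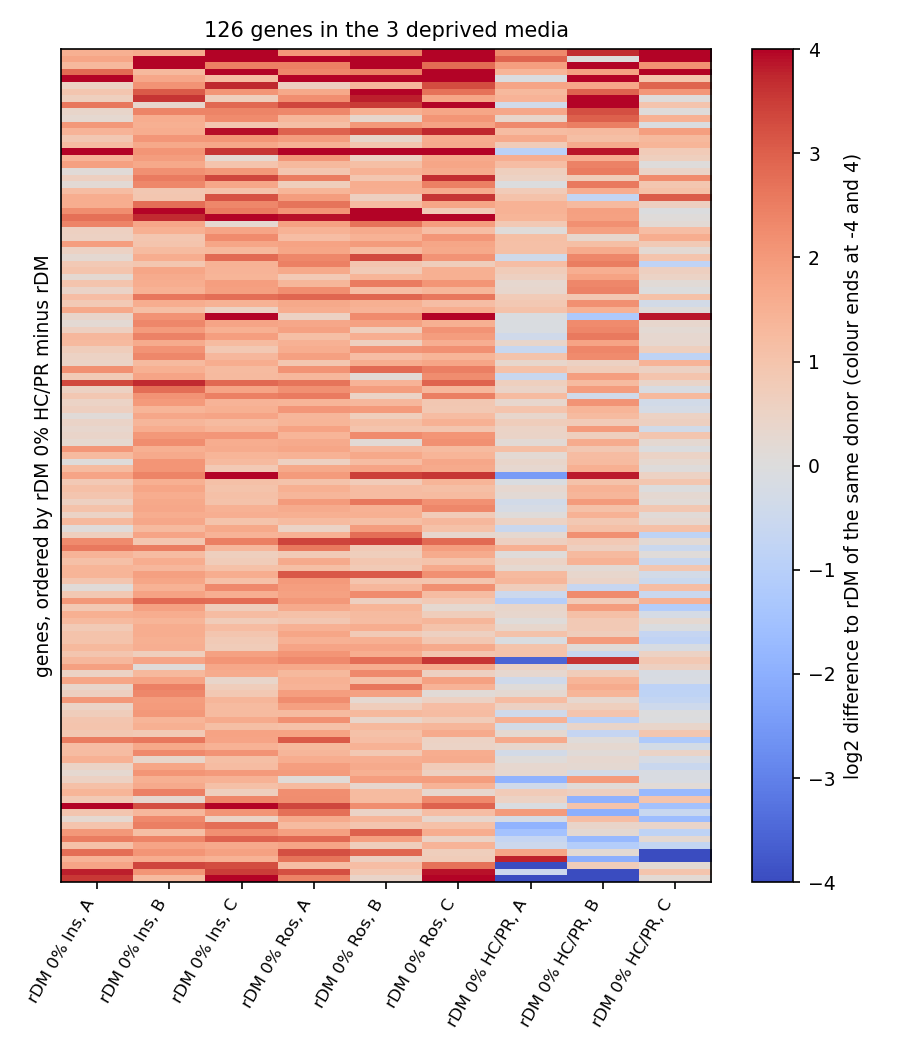
Log2 difference to rDM of the same donor for each of the 126 genes (rows, ordered by the mean difference of rDM 0% HC/PR to rDM) in 9 libraries (columns, donors A, B and C of each deprived medium). The 6 columns without insulin or rosiglitazone are above 0 throughout by the choice of genes, while the HC/PR columns are palest in donors A and C, with 91 and 80 genes above rDM against 109 in donor B.

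The set can also be set against the libraries without insulin or rosiglitazone, but the genes were selected for high levels in those libraries, which favours a lower level without HC/PR. The values of this paragraph are therefore a description, and nothing is read from their counts. The median log2 difference of rDM 0% HC/PR was -0.81 to rDM 0% Ins and -0.97 to rDM 0% Ros, against -0.18 and -0.08 over all genes tested. All libraries without HC/PR lay below all libraries without insulin for 50 genes, or 39.7%, against 16.8% of the genes of at least 20 CPM. They lay below all libraries without rosiglitazone for 60 genes, or 47.6%, against 11.5%. By limma 12 genes were lower without HC/PR than without insulin at an adjusted p of 0.05, where 0.647% of all genes tested were, and 22 were lower than without rosiglitazone, where 0.788% were. In all 24 genes were lower in at least 1 of these comparisons and 10 in both, for which the shares over all genes tested are not given. Of those 10, 6 had a mean log2 level without HC/PR below rDM. For ENSBTAG00000052510 the log2 difference was -4.19 to rDM 0% Ins and -3.05 to rDM 0% Ros, and for ENSBTAG00000046158 it was -1.37 and -2.69. The counts mostly fell when libraries were left out, where the fit also has fewer libraries. The 12 became 6, 9 and 2 without donors A, B and C, and 4 and 7 when the rDM 0% Ins or rDM 0% HC/PR library of donor C alone was left out. The 22 became 4 without donor A or without donor C, and 26 without donor B. Single libraries left out gave 9 and 13 (rDM 0% Ros of A and C) and 14 and 13 (rDM 0% HC/PR of A and C).

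Genes whose level was higher without rosiglitazone than without insulin also stood higher without HC/PR. The 25 genes with a difference between the rises of at least 0.5 in favour of rosiglitazone removal had a median of 0.92 for rDM 0% HC/PR minus rDM, and 1 of them was below 0. The 10 genes with a difference of at least 0.5 in favour of insulin removal had a median of -0.05, and 5 of them were below 0. The 91 genes between had a median of 0.63. Across the 126 genes Pearson's r of these differences was 0.47 and Spearman's rho 0.35. Over all genes of at least 20 CPM they were 0.40 and 0.35, so the relation was not particular to the set. Genes are not independent replicates, all points come from the same 12 libraries, and in donor B the rDM 0% Ros and rDM 0% HC/PR libraries shared a pool that its rDM 0% Ins and rDM libraries were not in. The part of the pool in this relation was not tested.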

How the data were processed

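The authors extracted mRNA from each culture, made barcoded PCR-amplified cDNA, sequenced it on a Nanopore instrument in 2 pools, mapped reads to the bovine transcriptome (ARS-UCD1.2) with Minimap2 and quantified them with Salmon. Estimated counts per transcript were deposited for every library, with no batch correction. The authors also deposited a table of CPM values per gene, made through tximport and corrected for the 3 batches of mRNA extraction, which are the donors, with ComBat-seq. Whether the media were given to that correction is not stated in the sources used here, and libraries corrected together are not independent, which the spread between them carries. Within 0.01 reads, 100% of the CPM values were whole multiples of 1 read per library, which gave recovered reads of 295288 to 1107442 per library. Replicates of a medium come from separate donors and differed beyond sampling noise, which does not decide whether a library should be kept. All 12 libraries were kept.

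Tests were made on log2(CPM + 1) with limma 3.58.1 (R 4.3.3) with a trend in the variance, over 9267 genes of at least 5 CPM in at least 3 libraries, all 12 libraries in 1 fit with the donor as a block. Benjamini-Hochberg adjustment was over all genes tested, with a threshold of 0.05. All 126 genes passed this filter, some of them only through the media in which they are high. The donor pairing comes from the replicate letter and batch in the labels, and in the uncorrected transcripts libraries of the same donor deviated together (r of 0.194 to 0.593 over 18 pairs). The correlation was -0.345 to 0.041 in the corrected table. edgeR 4.0.16 (quasi-likelihood) and DESeq2 1.42.0 were run on recovered reads as alternatives. In data simulated for rDM 0% Ros against rDM 0% Ins with 200 of 9267 genes changed, limma found 65% of the 4-fold and 13% of the 2-fold changes, and 9.3% of its calls were false. The changed genes averaged at least 20 CPM, and the simulation held no donor or pool effect and no batch correction. These shares may therefore not hold for the real libraries or for genes scarce in rDM.

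The members and all lists were chosen with earlier results of these data known. Named genes are the 2 highest by the mean of both rises, the 2 most abundant in rDM, and the 2 highest and 2 lowest by the difference between the rises and by the difference without HC/PR. ENSBTAG00000000820, ENSBTAG00000000436 and ENSBTAG00000000394 were named after their values were seen. Gene lists, cell type markers, positions and sequences are not analysed here, since 0 of 22372 gene and 0 of 38030 transcript identifiers could be matched to names.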

Additional observations from a re-analysis of the deposited data

How the results depend on the processing

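The set depends on its thresholds and scale. It held 126 genes, and 72 with a pseudocount of 10, 77 with TMM scaling, 194 with a bound of 10 CPM, 72 with 40 CPM and 330 with none. All of the 72, 77 and 72 were among the 126. TMM scaling moved the median of all genes tested from 0.19 to -0.03 for rDM 0% Ins against rDM and from 0.10 to -0.05 for rDM 0% Ros against rDM. With donors or single libraries left out (the latter chosen after seeing the data) the rule gave 107 to 186 genes, of which 91 to 126 were among the 126. The same rule on the uncorrected transcripts, also added after seeing the data, gave 107 of 4158 transcripts (121 lowered by the mirrored rule), with a median of 0.65 for rDM 0% HC/PR minus rDM (0.36, 0.97 and 0.32 in donors A, B and C).

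The count for rDM 0% HC/PR against rDM, 0 by limma, was 1 with no filter, 1 with no replicate block (ENSBTAG00000000820 in both), 2 by DESeq2 (that gene and ENSBTAG00000054278) and 0 to 1 with replicates left out. For rDM 0% Ros against rDM 0% Ins it was 1 with a pseudocount of 10, 1 with no filter, 1 with no replicate block (ENSBTAG00000046158 in each), 1 by edgeR (ENSBTAG00000000394, seen after the fact), 2 by DESeq2 (both genes) and 0 to 1 with replicates of these media left out. It was 2 (both genes) without the rDM 0% HC/PR library of donor B, which shares the fit. With no replicate block, rDM 0% HC/PR against rDM 0% Ins gave 21 calls in place of 12 and rDM 0% Ins against rDM 54 in place of 29. With replicates of the compared media left out the counts ran from 2 to 15 for rDM 0% HC/PR against rDM 0% Ins, from 4 to 27 against rDM 0% Ros, from 2 to 31 for rDM 0% Ins against rDM and from 15 to 51 for rDM 0% Ros against rDM, below the full count of 57 in each case. The unpaired fit moved no other count by over 1.5 times.

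The median of rDM 0% Ros minus rDM 0% Ins, 0.14, ran from -0.15 to 0.29 with a donor left out. For ENSBTAG00000000524 this difference, -0.07, was 0.02 with TMM scaling, 0.10 by edgeR and 0.05 by DESeq2, and ran from -0.38 to 0.26 with replicates left out. That of rDM 0% HC/PR to rDM for ENSBTAG00000021957, -1.21, ran from -2.31 to 0.25. The causes were not tested. The depth limits genes scarce in rDM, of which 22 were under 3 reads in at least 1 rDM library.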
